A study of Acorus calamus with 8 samples.

Results

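This comparison sets the rhizome of cut sweet flag (Acorus calamus) explants against the rhizome of uncut explants at a month. Cut explants had the height of their leaves reduced; uncut explants kept it. All explants, cut and uncut alike, grew on Murashige and Skoog medium with the synthetic auxins 2,4-D at 2 mg/l and NAA at 0.5 mg/l, per the labels, which also report more rhizome extension and shoot proliferation in cut explants. The labels count the month from the cutting for the uncut explants too. They do not say how many explants went into a library, or whether rhizome pieces were pooled. The 2 libraries were 2 of 8 in the series, with 1 library for each combination of tissue, cutting and time. With 1 library a side there is no test: every fold below describes these 2 libraries, and its interval covers counting error only.

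A rhizome is a horizontal stem that stores carbohydrate and carries the buds from which new shoots grow. Its cells hold starch and storage proteins such as mannose-binding lectins. Dehydrins and other late embryogenesis abundant (LEA) proteins protect membranes and proteins when a plant cell loses water, and many of their genes respond to the hormone abscisic acid. Galactinol synthase makes galactinol, the galactosyl donor for raffinose sugars, which also build up in drying or cold tissue. Metallothioneins are small cysteine-rich proteins that bind copper and zinc.

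The cut rhizome library held 10848802 counts and the uncut rhizome library held 11126856. Ribosomal RNA features took 94.7% of the counts in cut rhizome and 95.01% in uncut rhizome and were set aside. Organelle features took 1.01% in cut rhizome (exact Clopper-Pearson 95% interval 1.004 to 1.016) and 0.728% in uncut rhizome (0.723 to 0.733). A single plastid contig, CL299.Contig6, held 55810 of the 109524 organelle counts in cut rhizome and 24879 of 81036 in uncut rhizome. Without this contig the organelle share was not higher in cut rhizome. The nuclear features kept 466358 counts in cut rhizome, 4.30% of the library (4.29 to 4.31), and 474464 in uncut rhizome, 4.26% of the library (4.25 to 4.28). One undescribed feature of 310 bases, Unigene19161, whose class is uncertain, held 198260 of these in cut rhizome and 121518 in uncut rhizome. That left 268098 nuclear counts in cut rhizome and 352946 in uncut rhizome. After scaling by the trimmed mean of M values (TMM), 1 count in cut rhizome stood for 1.38 counts in uncut rhizome.

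The tissue label was read against marker lists. Green tissue markers (light-harvesting and photosystem proteins, Rubisco small subunit and activase) summed to 0.285% of nuclear counts without Unigene19161 in cut rhizome and 0.143% in uncut rhizome, against 3.11% in cut leaf and 2.67% in uncut leaf at a month. Of the 61 features on that list, 16 were at 0 in cut rhizome and 19 in uncut rhizome. Storage markers (lectins, storage proteins, granule-bound starch synthase, sucrose synthase) made up 0.667% in cut rhizome and 0.466% in uncut rhizome, and 0.228% and 0.180% in the leaf libraries of cut and uncut explants at a month. Markers of dividing cells summed to 0.339% in cut rhizome and 0.349% in uncut rhizome, with 46 and 54 of 67 features detected. Xylem markers had 72 counts in cut rhizome and 102 in uncut rhizome, with 11 and 9 of 13 features at 0. The 5 nitrate and phosphate transporter features of the root uptake list held 61 counts in cut rhizome and 49 in uncut rhizome. The 1 viral or phage protein on the list was at 0 in both. In a tissue library, more cells of a type and more RNA per cell cannot be told apart.

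Of 24601 features without ribosomal RNA, 1681 had at least 50 counts in cut or uncut rhizome and were compared. A feature could pass this minimum through 1 library alone, the one where it was higher. A feature counted as different at a ratio of at least 4-fold, with the lower library taken as at least 3 counts. In cut rhizome 64 features were at least 4-fold higher (3.81% of those compared) and 20 were at least 4-fold lower (1.19%). At 2-fold the counts were 214 higher (12.7%) and 148 lower (8.8%). The median log2 ratio over all 1681 features was -0.05. Scaling by library totals without ribosomal RNA lowered every log2 ratio by 0.51, which left 42 features at least 4-fold higher and 49 lower; FPKM values rescaled to 1 sum, with 0.1 added, moved the median ratio by -0.92 and gave 30 higher and 106 lower. List medians are therefore best read against that of all features, which was -0.57 under library totals and -0.97 with FPKM. Every count of list members past 2-fold is best read against 12.7% higher and 8.8% lower. The whole counting interval lay past 4-fold for 41 of the higher features and for 11 of the lower ones. Among those past 4-fold, 40 of the higher and 14 of the lower carried a protein description. Features that are named at 2- to 4-fold were chosen after their values were seen, apart from a few that hold the most counts of their list.

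**Figure D1:**
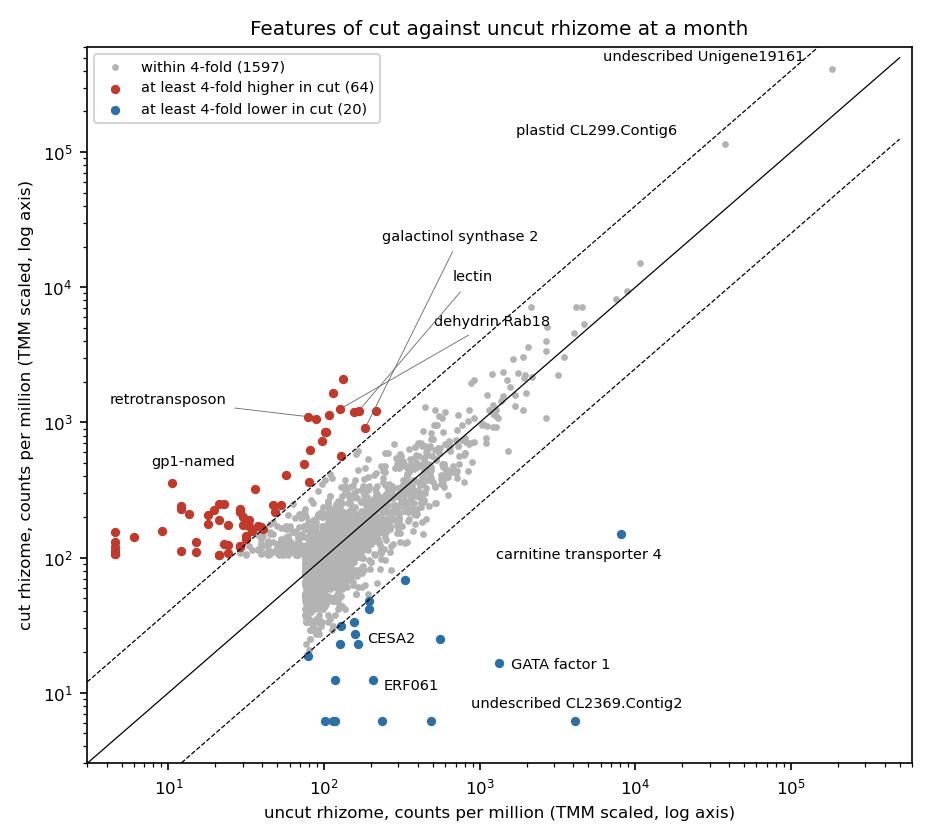
Scaled counts (CPM) of the 1681 features in cut rhizome (vertical log axis) and uncut rhizome (horizontal log axis), with features below 3 counts drawn at 3. The solid line marks equal levels and the dashed lines 4-fold; 64 red points lie above the upper line and 20 blue points below the lower one.

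Among genes of water-deficit protection, a dehydrin and 1 cluster of 2 contigs were more than 4-fold higher. The dehydrin Rab18 feature CL1434.Contig2 had 605 counts in cut rhizome and 84 in uncut rhizome, 9.92-fold higher (95% counting interval 7.89 to 12.6). A pair of contigs described as low-temperature-induced 65 kDa protein, which is known in Arabidopsis as an abscisic acid and drought response gene, behaved alike. CL2115.Contig2 had 110 counts in cut rhizome and 19 in uncut rhizome, 7.98-fold higher (4.87 to 13.8). CL2115.Contig1 had 54 in cut rhizome and 0 in uncut rhizome, 24.8-fold higher with the 0 counted as 3 (counting interval from 19.5 upward). Summed over the cluster the ratio was 11.9-fold. A LEA protein 2 contig, CL837.Contig4, had 87 counts in cut rhizome and 52 in uncut rhizome. Unigene5000, described as abscisic acid-insensitive 5-like protein 5, a bZIP factor that binds abscisic acid response elements, had 64 in cut rhizome and 40 in uncut rhizome, 2.20-fold higher (1.46 to 3.36).

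Across the 39 features of the abscisic acid, dehydrin and LEA list, 11 had enough counts. Of these, 5 were at least 2-fold higher (against 12.7% of all features), 3 of them at least 4-fold (against 3.81%), and none was 2-fold lower. The 3 include both contigs of cluster CL2115, which share reads. The median log2 ratio of the 11 was 0.995. The member with the most counts, the SRC1-like dehydrin CL354.Contig2, stayed within 2-fold, with 1915 counts in cut rhizome and 1766 in uncut rhizome, 1.49-fold (1.40 to 1.59). Protein phosphatases 2C and SnRK2 kinases, which act in abscisic acid signalling, had 2 of 18 at least 2-fold higher and 1 lower, near the 12.7% and 8.8% of all features, with a median of -0.33.

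All 3 compared features of galactinol and raffinose synthesis were higher. Galactinol synthase Unigene10239 had 438 counts in cut rhizome and 122 in uncut rhizome, 4.95-fold higher (4.04 to 6.10). A related feature, Unigene10240, had 63 in cut rhizome and 10 in uncut rhizome, 8.68-fold higher (4.42 to 18.97). Unigene9471, galactinol-sucrose galactosyltransferase, which joins galactose to sucrose and so makes raffinose, had 82 in cut rhizome and 33 in uncut rhizome, 3.42-fold higher (2.26 to 5.30). Both steps were higher in cut rhizome, and the median log2 ratio of the list was 2.31.

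The heat shock and chaperone list had 4 of 31 members at least 2-fold higher and 1 lower, which is close to the 12.7% of all features that were higher and below the 8.8% that were lower. The class I small heat shock protein contig CL2198.Contig4 had 91 counts in cut rhizome and 14 in uncut rhizome, 8.96-fold higher (5.07 to 17.03). A DnaJ co-chaperone, CL1045.Contig1, had 181 in cut rhizome and 67 in uncut rhizome, 3.72-fold higher (2.80 to 5.003). CL1213.Contig2, the endoplasmic reticulum chaperone luminal-binding protein 2, had 70 in cut rhizome and 26 in uncut rhizome. Heat shock cognate 70 kDa protein CL1102.Contig3, the member with the most counts, had 1747 in cut rhizome and 1357 in uncut rhizome, 1.77-fold (1.65 to 1.91).

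**Figure D2:**
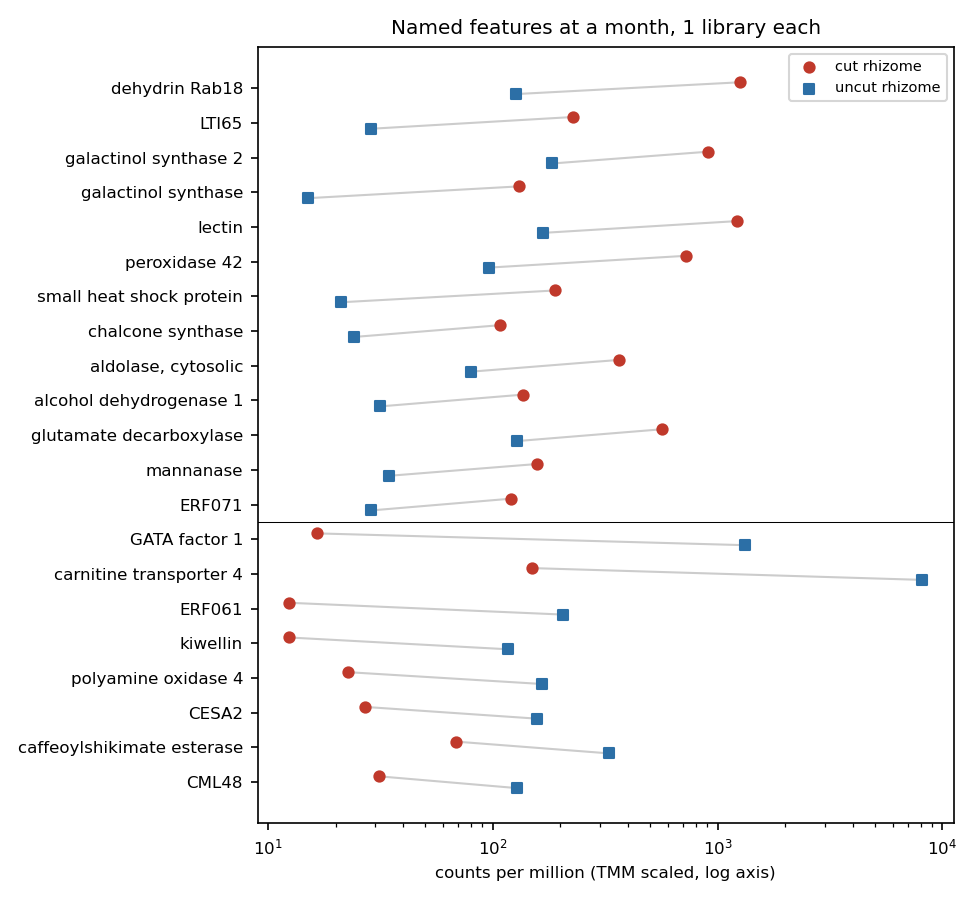
Scaled counts (CPM) (log axis) of 21 described features past 4-fold in cut rhizome (red circles, upper position in each row) and uncut rhizome (blue squares, lower position), 1 library each. The 13 rows above the line are higher in cut rhizome, dehydrin Rab18 9.92-fold and peroxidase 42 7.53-fold among them; the 8 below it are lower, GATA transcription factor 1 80.1-fold.

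The lectin contig CL1454.Contig2, which SwissProt matches to a mannose-specific lectin, had 589 counts in cut rhizome and 111 in uncut rhizome, 7.31-fold higher (5.96 to 9.04). Another mannose-specific lectin, CL2458.Contig1, stayed within 2-fold with 119 counts in cut rhizome and 204 in uncut rhizome. Of 6 lectin and storage protein features, 2 were at least 2-fold higher and 1 was lower, against 12.7% and 8.8% of all features, counts too small to set the list apart. Starch enzymes, likewise few, had a median log2 ratio of 0.66, or -0.27 with FPKM, where that of all features was -0.97. Of 8 members 2 were at least 2-fold higher and none lower. They were phosphoglucan, water dikinase CL2097.Contig1, which phosphorylates starch for its breakdown, with 64 counts in cut rhizome and 29 in uncut rhizome, and the inactive beta-amylase 9-like Unigene4603, with 72 and 31. Beta-amylase 1 CL2263.Contig1, which releases maltose from starch, had 459 in cut rhizome and 342 in uncut rhizome, 1.85-fold (1.60 to 2.13).

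Sucrose synthase CL1148.Contig2 had 344 counts in cut rhizome and 541 in uncut rhizome, 0.876-fold with an interval (0.763 to 1.005) that takes in equality. Trehalose-phosphate phosphatase CL458.Contig1 had 175 in cut rhizome and 529 in uncut rhizome, 2.19-fold lower (1.85 to 2.62). It was the 1 of 9 sucrose, trehalose and sugar transport features past 2-fold, against 12.7% higher and 8.8% lower of all features. In glycolysis and fermentation, cytosolic fructose-bisphosphate aldolase Unigene8015 had 176 counts in cut rhizome and 53 in uncut rhizome, 4.58-fold higher (3.35 to 6.34). Unigene10233, alcohol dehydrogenase 1 in SwissProt, the enzyme that regenerates NAD+ in oxygen-poor tissue, had 66 in cut rhizome and 21 in uncut rhizome, 4.33-fold higher (2.62 to 7.45). Enolase CL2253.Contig2 was level at 599 counts in cut rhizome and 841 in uncut rhizome, 0.981-fold (0.882 to 1.09). Over the list 3 of 19 members were at least 2-fold higher and 1 was lower, near the 12.7% and 8.8% of all features, with a median of 0.08.

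Glutamate decarboxylase CL415.Contig2, which makes GABA, had 272 counts in cut rhizome and 85 in uncut rhizome, 4.41-fold higher (3.44 to 5.69), against 1.66-fold for its cluster. Ketol-acid reductoisomerase, an enzyme of branched-chain amino acid synthesis, was higher in both of its contigs. CL2314.Contig2 had 76 counts in cut rhizome and 6 in uncut rhizome, and CL2314.Contig1 had 596 in cut rhizome and 345 in uncut rhizome; the cluster was 2.64-fold higher. Methionine synthase contig CL643.Contig2 had 120 in cut rhizome and 15 in uncut rhizome, 11.0-fold higher (6.42 to 20.3), while its cluster of 5 contigs was 1.75-fold higher. Polyamine oxidase 4 contig CL1388.Contig1, an enzyme that breaks down polyamines, went the other way with 11 counts in cut rhizome and 110 in uncut rhizome, 7.26-fold lower (3.90 to 15.0).

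Of 11 cellulose and callose synthesis features 10 had a log2 ratio below 0 and 1 above 0. Over all 1681 features 784 were above 0. The median of the list was -0.64, or -1.15 under scaling by library totals, where that of all features was -0.57. Cellulose synthase A catalytic subunit 2, Unigene7049, had 13 counts in cut rhizome and 105 in uncut rhizome, 5.86-fold lower (3.28 to 11.4). Callose synthase 3, Unigene6900, had 45 in cut rhizome and 133 in uncut rhizome, 2.15-fold lower (1.52 to 3.08). The subunit 1 contig CL1880.Contig2 had 95 in cut rhizome and 200 in uncut rhizome, 1.53-fold lower (1.19 to 1.97). These 2 past 2-fold compare with 8.8% of all features.

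Pectin genes had a median log2 ratio of -0.75 over 7 features, with 1 at least 2-fold higher and 1 lower, against 12.7% and 8.8% of all features. The lower one was the galacturonosyltransferase 14 contig CL103.Contig2, a pectin synthesis enzyme, with 11 counts in cut rhizome and 51 in uncut rhizome. UDP-glucuronate 4-epimerase 1 contig CL216.Contig1, which supplies UDP-galacturonate, was higher with 53 in cut rhizome and 10 in uncut rhizome, 7.30-fold (3.68 to 16.1), and its cluster was 2.44-fold higher. Of 8 expansin, xyloglucan and mannan features, 2 were at least 2-fold higher and 1 lower, which on so few features is not set apart from those shares. They included endo-beta-mannanase Unigene6884, which cuts mannan, with 76 counts in cut rhizome and 23 in uncut rhizome, 4.55-fold higher (2.82 to 7.61), and expansin-like A1 Unigene9361, with 138 in cut rhizome and 73 in uncut rhizome, 2.60-fold higher (1.95 to 3.51).

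Secretory class III peroxidases, which oxidise phenolics in the wall, had 3 of 4 compared members at least 2-fold higher, against 12.7% of all features. Peroxidase 42 CL1585.Contig2 had 350 counts in cut rhizome and 64 in uncut rhizome, 7.53-fold higher (5.76 to 9.996). Peroxidase 72 CL1805.Contig1 had 58 in cut rhizome and 33 in uncut rhizome, and peroxidase 12 CL2375.Contig3 had 51 and 30. The peroxidase 31-like Unigene9182 had 33 counts in cut rhizome and 84 in uncut rhizome, 1.85-fold lower (1.22 to 2.85).

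Phenylpropanoid and lignin enzymes had 9 of 11 log2 ratios above 0, against 784 of all 1681 features, with a median of 0.37. Of the 11, 2 were at least 2-fold higher and 1 lower, against 12.7% and 8.8% of all features. Chalcone synthase CL371.Contig1, the entry enzyme of flavonoid synthesis, had 52 counts in cut rhizome and 16 in uncut rhizome, 4.48-fold higher (2.52 to 8.402), and its cluster was 6.89-fold higher. Trans-cinnamate 4-monooxygenase CL1296.Contig2, an early enzyme of the pathway, had 102 in cut rhizome and 67 in uncut rhizome, 2.10-fold higher (1.53 to 2.90). Caffeoylshikimate esterase CL1664.Contig2, an enzyme of the lignin branch in Arabidopsis, had 33 in cut rhizome and 219 in uncut rhizome, 4.82-fold lower (3.33 to 7.17). 4-coumarate-CoA ligase Unigene148 had 162 counts in cut rhizome and 182 in uncut rhizome, 1.23-fold (0.986 to 1.52).

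BURP domain proteins, plant wall proteins related to the drought-response protein RD22, were split within 1 cluster. CL740.Contig2 had 51 counts in cut rhizome and 3 in uncut rhizome, a ratio of 23.4 (7.58 to 117), and CL740.Contig1 had 23 in cut rhizome and 129 in uncut rhizome, 4.07-fold lower (2.60 to 6.65). The summed cluster had 74 counts in cut rhizome and 133 in uncut rhizome, 1.30-fold lower. A second cluster was higher in both contigs, CL2274.Contig1 with 59 in cut rhizome and 19 in uncut rhizome and CL2274.Contig2 with 62 and 29, 3.47-fold together. A further 12 compared features carry, in SwissProt, the name of an algal wall protein, gp1. Proline-rich low-complexity stretches can give that match, so it does not settle their function. Of the 12, 8 were at least 2-fold higher and 1 lower, against 12.7% and 8.8% of all features. Some have another description. The leucine-rich repeat extensin-like CL143.Contig3 had 102 counts in cut rhizome and 9 in uncut rhizome. The BYPASS-related Unigene4673, with the most counts of those within 4-fold, had 186 and 398, 1.55-fold lower (1.30 to 1.86). Unigene6546 had 173 counts in cut rhizome and 7 in uncut rhizome, 34.0-fold higher (16.2 to 86.0), and Unigene5358 had 54 in cut rhizome and 8 in uncut rhizome.

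GATA transcription factor 1, CL2251.Contig1, had 8 counts in cut rhizome and 883 in uncut rhizome, 80.1-fold lower (40.5 to 186), and this was the lowest ratio of any described feature. Only 20 and 80 counts of it were seen in cut and uncut leaf at a month. The ethylene-responsive factor ERF061, Unigene5496, had 6 in cut rhizome and 137 in uncut rhizome, 16.6-fold lower (7.42 to 45.9), while ERF071, Unigene6840, had 58 in cut rhizome and 19 in uncut rhizome, 4.21-fold higher (2.47 to 7.48). In Arabidopsis the ERF group that holds ERF071 takes part in low-oxygen responses. An ERF1-like contig, CL1326.Contig1, and the ethylene response factor Unigene7317 both had 14 counts in cut rhizome, against 56 and 54 in uncut rhizome. The other 24 of 28 ethylene and ERF features were within 2-fold, so 1 was higher and 3 lower. These compare with 12.7% and 8.8% of all features, and the median over the list was -0.01. Dehydration-responsive element-binding protein 1G, Unigene1271, was not on this list. It had 187 counts in cut rhizome and 75 in uncut rhizome, 3.44-fold higher (2.61 to 4.55).

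NAC, WRKY, MYB and bHLH factors had 1 of 18 members at least 2-fold higher and 3 lower, against 12.7% and 8.8% of all features, with a median of -0.38. The NAC factor CL905.Contig4 held the most counts, 272 in cut rhizome and 488 in uncut rhizome, 1.30-fold lower (1.12 to 1.52). Only 3 homeobox and GATA features had enough counts. Besides GATA factor 1 they were the homeobox-leucine zipper genes HAT5, CL1074.Contig2, with 65 counts in cut rhizome and 35 in uncut rhizome, and HOX9, Unigene2458, with 35 in cut rhizome and 92 in uncut rhizome.

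In the lists of the other hormones no member was past 4-fold, and the few past 2-fold compare with 12.7% higher and 8.8% lower of all features; auxins were in the medium of both libraries. Of 12 auxin features 1 was at least 2-fold higher and none lower; the higher one was an IAA1 contig, CL1016.Contig1, with 60 counts in cut rhizome and 29 in uncut rhizome. Its partner CL1016.Contig2, a contig of the same auxin-response repressor, had 224 in cut rhizome and 321 in uncut rhizome, 0.961-fold (0.807 to 1.14). In the cytokinin, gibberellin and brassinosteroid list, 2 of 6 were at least 2-fold lower: the brassinosteroid-pathway factor BES1/BZR1 homolog 4, Unigene9289, with 40 counts in cut rhizome and 131 in uncut rhizome, and the scarecrow-like 21 contig CL951.Contig2, with 23 and 78. Jasmonate had 1 of 6 lower, the repressor TIFY 10A, Unigene2391, with 28 in cut rhizome and 81 in uncut rhizome, 2.10-fold (1.35 to 3.35). A contig described as MYC2, CL1933.Contig2, was on neither this list nor that of bHLH factors. It had 51 counts in cut rhizome and 26 in uncut rhizome, 2.70-fold higher (1.65 to 4.52). Its cluster was 1.26-fold higher.

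**Figure D3:**
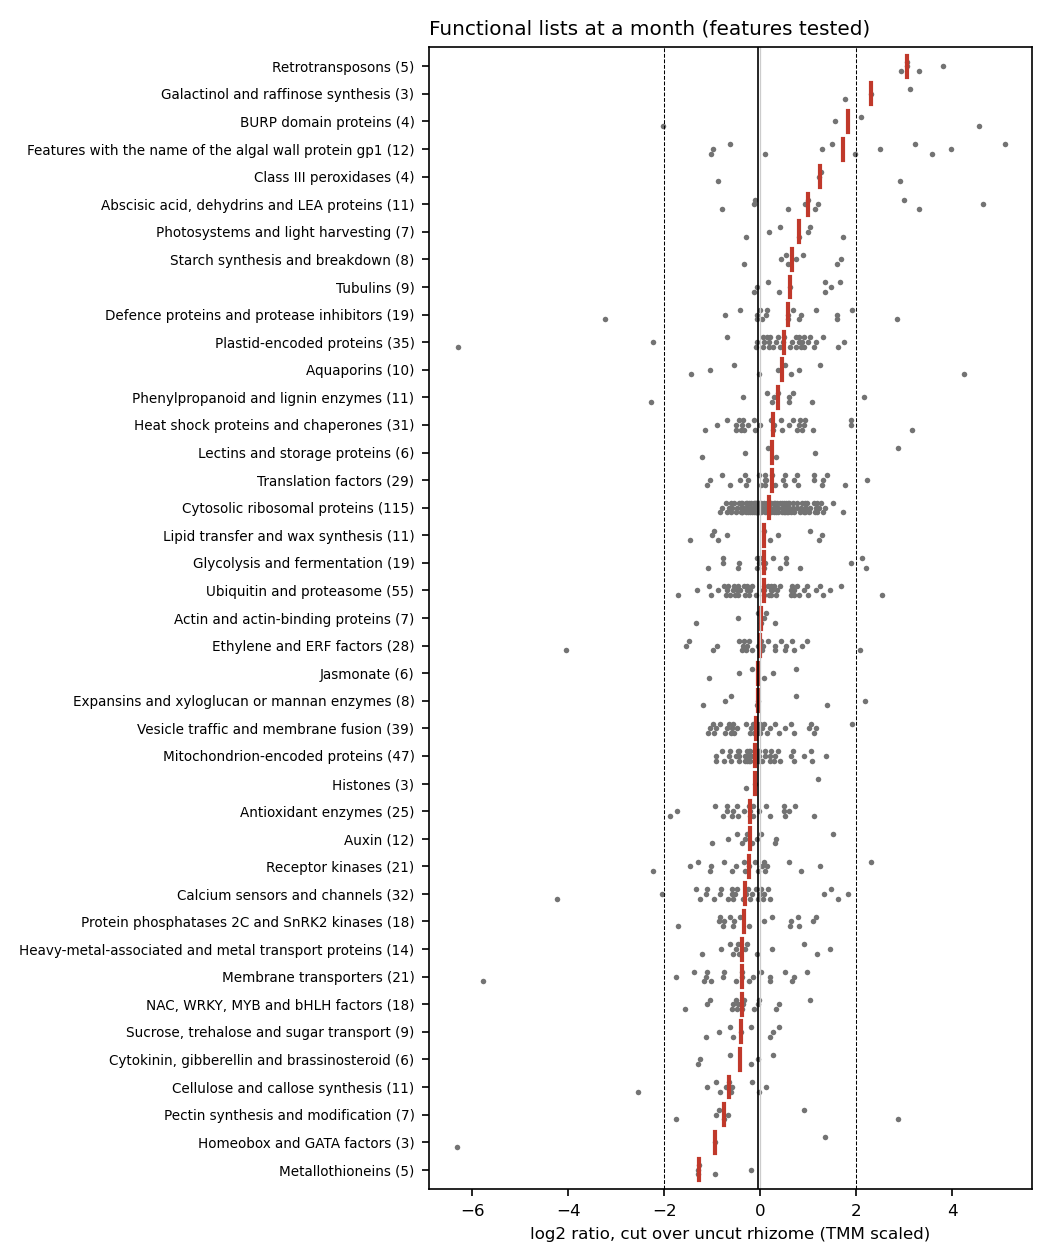
Log2 ratio of cut over uncut rhizome for every compared member (grey points) of the 41 functional lists, with the number of members in brackets and red bars at the list medians. The black line is the median of all 1681 features, -0.05, and the dashed lines mark 4-fold; retrotransposons (3.06) and galactinol and raffinose synthesis (2.31) stand highest and metallothioneins (-1.27) lowest.

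The organic cation/carnitine transporter 4 feature, Unigene10532, had 72 counts in cut rhizome and 5408 in uncut rhizome, 54.5-fold lower (43.2 to 69.8), the second lowest ratio of a described feature. Of 21 membrane transporter features 7 were at least 2-fold lower and none was higher, against backgrounds of 8.8% and 12.7%. The nitrate transporter NPF6.3, Unigene104, had 31 in cut rhizome and 145 in uncut rhizome, 3.40-fold lower (2.29 to 5.18). Boron transporter 4, Unigene4832, had 63 in cut rhizome and 227 in uncut rhizome, and ABC transporter G36, Unigene6832, had 123 and 347. The magnesium transporter NIPA6, Unigene8012, was within 2-fold with 1478 counts in cut rhizome and 1251 in uncut rhizome.

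Of 10 aquaporins, the water channels, 2 were at least 2-fold higher and 2 lower, against 12.7% and 8.8% of all features. PIP2-2 contig CL2613.Contig3 had 110 counts in cut rhizome and 8 in uncut rhizome, 18.9-fold higher (9.28 to 44.98), but CL2613.Contig5 of the same cluster had 15 in cut rhizome and 56 in uncut rhizome. Over the cluster the ratio was 1.92-fold. Tonoplast intrinsic protein CL1044.Contig1 had 76 in cut rhizome and 44 in uncut rhizome, 2.38-fold higher (1.62 to 3.53), and PIP2-8, CL498.Contig4, had 56 in cut rhizome and 160 in uncut rhizome, 2.07-fold lower (1.52 to 2.86).

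None of the 5 compared metallothionein features had a log2 ratio above 0, against 784 of all 1681 features. Of the 5, 3 were at least 2-fold lower, against 8.8% of all features, and the median was -1.27. CL851.Contig1 had 522 counts in cut rhizome and 1771 in uncut rhizome, 2.46-fold lower (2.23 to 2.72). The type 3 feature Unigene4608 had 297 in cut rhizome and 1003 in uncut rhizome, 2.45-fold lower (2.15 to 2.80). The type 2 feature CL1414.Contig2, which has the most counts, had 1464 in cut rhizome and 2306 in uncut rhizome, 1.14-fold lower (1.07 to 1.22). Heavy-metal-associated and metal transport proteins had 2 of 14 at least 2-fold higher and 1 lower, near the 12.7% and 8.8% of all features. Antioxidant enzymes had 1 of 25 higher and 2 lower, below the share of all features upward and near it downward, the copper/zinc superoxide dismutase CL150.Contig2 among the lower with 15 counts in cut rhizome and 76 in uncut rhizome, 3.68-fold (2.10 to 6.89); catalase CL24.Contig2 had 325 in cut rhizome and 318 in uncut rhizome.

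Defence genes had 5 of 19 at least 2-fold higher and 1 lower, against 12.7% and 8.8% of all features. Their median was 0.58 under TMM and -0.36 with FPKM, where that of all features was -0.97. Hs1pro-1, a nematode resistance gene of beet, matched CL1008.Contig3, with 84 counts in cut rhizome and 16 in uncut rhizome, 7.23-fold higher (4.20 to 13.2); its cluster was 2.56-fold higher. Defensin CL1025.Contig2, an antimicrobial peptide, had 992 in cut rhizome and 609 in uncut rhizome, 2.24-fold higher (2.03 to 2.49). Chitinase CL499.Contig1 had 55 in cut rhizome and 25 in uncut rhizome. The 1 lower was kiwellin Unigene1965 with 6 counts in cut rhizome and 78 in uncut rhizome, 9.44-fold lower (4.15 to 26.5).

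Calcium sensors and channels had 4 of 32 at least 2-fold higher, near the 12.7% of all features, and 6 lower, against 8.8%, with a median log2 ratio of -0.33. Calcium sensors related to CML38 were higher: Unigene7378 had 70 counts in cut rhizome and 27 in uncut rhizome, and Unigene9701 had 101 and 50. Features described as calmodulin differed in direction. CL171.Contig1, with 139 counts in cut rhizome and 413 in uncut rhizome, and CL59.Contig2, with 47 and 155, were lower. Higher were CL118.Contig16, with 118 counts in cut rhizome and 31 in uncut rhizome, 5.24-fold (3.51 to 8.06), and CL118.Contig13, with 82 and 25, 4.52-fold (2.86 to 7.38). Both are long contigs, of 4689 and 6091 bases, with no SwissProt match and are not on the list; their cluster was 2.27-fold higher. The like-described Unigene4599, also without a SwissProt match, had 160 counts in cut rhizome and 97 in uncut rhizome. Another 4 features with a calmodulin name in SwissProt were within 2-fold. CML48, Unigene3622, had 15 counts in cut rhizome and 85 in uncut rhizome, 4.11-fold lower (2.36 to 7.67). The two-pore calcium channel contig CL1599.Contig1 was at 0 in cut rhizome and 78 in uncut rhizome. That is 18.9-fold lower with the 0 counted as 3 (counting interval from 15.0 upward). Yet CL1599.Contig3 had 83 in cut rhizome and 161 in uncut rhizome and the cluster was 1.46-fold lower. Likewise the CSC1-like channel contig CL1541.Contig1 was at 0 in cut rhizome and 156 in uncut rhizome, while CL1541.Contig2 had 230 and 276 and the cluster was 1.36-fold lower. Receptor kinases had 2 of 21 at least 2-fold higher, near the share of all features, and 5 lower, against 8.8%. Unigene8131, of 950 bases and described as somatic embryogenesis receptor kinase 1-like, had 30 counts in cut rhizome and 102 in uncut rhizome, 2.47-fold lower (1.63 to 3.84). SwissProt matches it to leucine-rich repeat protein 1 instead, so its place among the receptor kinases is uncertain.

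The machinery of protein synthesis sat slightly above the median of all features. Of 115 cytosolic ribosomal protein features 13 were at least 2-fold higher (against 12.7% of all features) and none was lower (against 8.8%). Their median log2 ratio was 0.19, or -0.32 under scaling by library totals, where that of all features was -0.57. Their ratios ran from a log2 of -0.84 to 1.71, the highest being 40S protein S28, Unigene7028, with 50 counts in cut rhizome and 21 in uncut rhizome. Translation factors had 7 of 29 at least 2-fold higher and 2 lower, against 12.7% and 8.8% of all features, with a median of 0.24, or -0.27 under library totals. An elongation factor 1-alpha contig, CL100.Contig12, had 119 in cut rhizome and 35 in uncut rhizome, 4.68-fold higher (3.19 to 7.04), but its cluster of 12 contigs was 1.56-fold higher. Ubiquitin and proteasome genes had 6 of 55 at least 2-fold higher and 4 lower, near the shares of all features; the polyubiquitin contig CL21.Contig7 had 84 in cut rhizome and 20 in uncut rhizome and its cluster was 1.34-fold higher.

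Tubulins, the subunits of microtubules, had a median log2 ratio of 0.61, or 0.10 under library totals and -0.31 with FPKM. Those of all features were -0.57 and -0.97 under these scalings. Of 9 tubulin members 4 were at least 2-fold higher and none lower, against 12.7% and 8.8% of all features. All 4 were beta-tubulins, among them CL2623.Contig4 with 260 counts in cut rhizome and 128 in uncut rhizome, 2.80-fold higher (2.26 to 3.49), and Unigene4618 with 80 and 35. An alpha-tubulin, CL2337.Contig1, was level at 368 in cut rhizome and 532 in uncut rhizome, 0.953-fold (0.832 to 1.09). Actin and its binding proteins had a median of 0.01, with 1 of 7 lower. Histones had 1 of 3 at least 2-fold higher: an H3.3 feature, Unigene1449, with 62 counts in cut rhizome and 37 in uncut rhizome, whereas the H3.3 feature with the most counts, Unigene9137, had 336 and 570, 1.23-fold lower (1.07 to 1.41). Vesicle traffic genes had 5 of 39 higher and 2 lower, and lipid transfer and wax genes 3 of 11 higher and 1 lower, beside 12.7% and 8.8% of all features.

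Retrotransposons are mobile elements that spread through reverse transcription. All 5 compared retrotransposon features, of 34 on the list, were at least 4-fold higher, against 3.81% of all features. CL30.Contig5 had 532 counts in cut rhizome and 52 in uncut rhizome, 14.1-fold higher (10.6 to 19.1). The reverse transcriptase contigs CL30.Contig4 and CL30.Contig6 share its cluster and hence reads; they had 406 and 410 in cut rhizome, against 67 and 68 in uncut rhizome. Outside that cluster, gag-pol Unigene2355 had 300 in cut rhizome and 54 in uncut rhizome, 7.65-fold higher (5.71 to 10.4), and CL15.Contig3 had 86 and 12. An undescribed contig, CL18.Contig6, had a like pattern with 1007 counts in cut rhizome and 88 in uncut rhizome, 15.8-fold higher (12.7 to 19.8), the most counts of any feature past 4-fold upward.

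The retrotransposon sum was set beside the other libraries. It came to 0.647% of nuclear counts without Unigene19161 in cut rhizome and 0.0717% in uncut rhizome. In leaf at a month the order was turned round, with 0.0380% in cut leaf and 0.106% in uncut leaf. At 4 days it was 1.37% in cut rhizome and 0.0411% in uncut rhizome, and 1.42% in cut leaf and 0.0133% in uncut leaf. The uncut rhizome library at 4 days held only 68157 such nuclear counts.

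**Figure D4:**
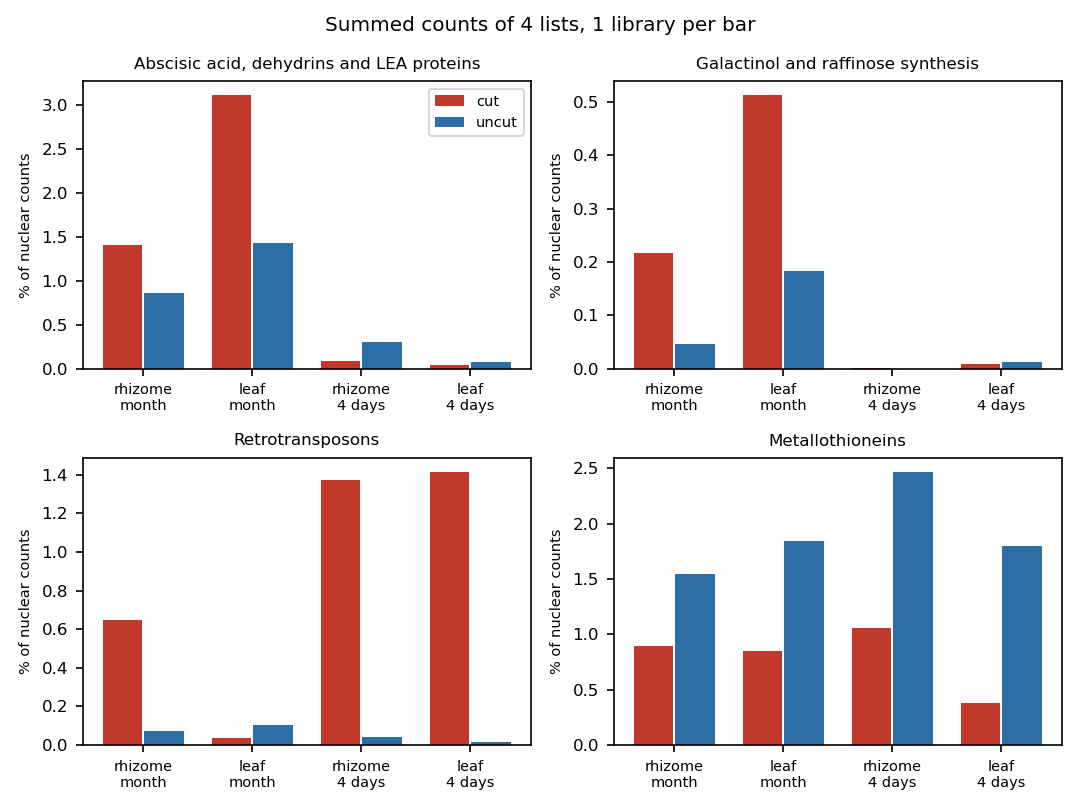
Summed counts of the compared members of 4 lists as a percentage of nuclear counts without Unigene19161, in cut (red, left bar) and uncut (blue, right bar) libraries of each tissue and time, 1 library per bar. Dehydrins and LEA proteins and galactinol and raffinose synthesis stand higher in cut libraries at a month in both tissues, retrotransposons in 3 of 4 pairs, and metallothioneins are lower in cut libraries in all 4 pairs.

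The month-old leaf pair and the 4-day pairs share no library with this one. The abscisic acid, dehydrin and LEA sum was 1.41% of nuclear counts without Unigene19161 in cut rhizome and 0.856% in uncut rhizome. In leaf at a month it was 3.12% in cut leaf and 1.43% in uncut leaf. At 4 days the sum was lower in cut libraries, with 0.0867% in cut rhizome and 0.304% in uncut rhizome. In 4-day leaf it was 0.0426% in cut leaf and 0.0792% in uncut leaf. The 4-day uncut rhizome sum was only 207 counts, of which the SRC1-like CL354.Contig2 held 147. Dehydrin Rab18 had 2 counts in cut rhizome and 1 in uncut rhizome at 4 days. The 4-day rhizome order thus says little on the members that were higher at a month. Galactinol and raffinose features summed to 0.217% in cut rhizome and 0.0467% in uncut rhizome, and to 0.513% in cut leaf and 0.182% in uncut leaf at a month. Dehydrin Rab18 itself had 6467 counts in cut leaf and 1705 in uncut leaf at a month, a log2 ratio of 3.42. Peroxidase 42 had 256 counts in cut leaf and 12 in uncut leaf, while lectin CL1454.Contig2 had 11 and 25. Of the 64 features at least 4-fold higher in cut rhizome at a month, 55 had 50 counts in a leaf library at a month. Of the 55, 18 (32.7%) were at least 2-fold higher and 10 (18.2%) at least 2-fold lower in cut leaf. The 10 include contigs of clusters CL30 and CL18, which share reads within a cluster but were counted singly. Over all features of this comparison with that depth in leaf the shares were 10.8% higher and 7.02% lower. Of the 20 features at least 4-fold lower in cut rhizome, 13 had that depth in leaf at a month, of which 4 (30.8%) were at least 2-fold lower and 1 (7.69%) higher in cut leaf.

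At 4 days fewer of the features had 50 counts in either library. In rhizome 36 of the 64 had them, and 31 (86.1%) were at least 2-fold higher and 1 lower in cut rhizome. Over all features with that depth the shares were 39.6% higher and 11.3% lower. The uncut library there was the shallow one of 68157 nuclear counts. Only 164 nuclear features reached 50 counts in it, against 2654 in cut rhizome at 4 days. Features thus passed the depth filter mostly through the cut library, so the 86.1% cannot be read as agreement between the times. In 4-day leaf 45 of the 64 had the depth. Of these, 26 (57.8%) were at least 2-fold higher and 9 lower in cut leaf, against 23.3% higher and 19.55% lower over all. Contigs of 1 cluster share reads but were counted singly. The 26 include more than 1 contig each of clusters CL30, CL18, CL143 and CL118, so 57.8% is not a share of separate genes. Of the 20 lower features, 4 had the depth in 4-day rhizome, with 1 higher and 2 lower, and 5 in 4-day leaf, with 1 higher and 4 lower.

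Plastid-encoded features had 30 of 35 log2 ratios above 0, against 784 of all 1681 features. Their median was 0.49, or -0.02 under scaling by library totals, where that of all features was -0.57. Of the 35, 6 were at least 2-fold higher and 2 lower, against 12.7% and 8.8% of all features. The largest, CL299.Contig6, named ORF91 by SwissProt, had 55810 counts in cut rhizome and 24879 in uncut rhizome, 3.09-fold higher (3.04 to 3.14); other contigs of its cluster were classed as ribosomal RNA. Photosystem features, plastid-encoded ones included, had 2 of 7 at least 2-fold higher, one of them the nuclear chlorophyll a-b binding protein Unigene3504 with 55 counts in cut rhizome and 23 in uncut rhizome. An atpA contig of the plastid, CL733.Contig1, had 20 in cut rhizome and 129 in uncut rhizome, but its cluster was 1.06-fold. The other lower feature, the undescribed Unigene19159 of 253 bases, had 0 counts in cut rhizome and 323 in uncut rhizome, 78.2-fold lower with the 0 counted as 3. Mitochondrion-encoded features had a median of -0.10, with 3 of 47 higher and none lower, both below the shares of all features.

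Some of the most extreme ratios belonged to features without a description. CL2369.Contig2, of 513 bases, had 0 counts in cut rhizome and 2731 in uncut rhizome, at least 661-fold lower, and 6 and 45 counts in cut and uncut leaf at a month. Unigene13993 had 75 counts in cut rhizome and 0 in uncut rhizome, at least 34.4-fold higher, and at most 2 in any other library. Unigene19161 was 2.25-fold higher (2.23 to 2.26). In all 24 of the 64 higher and 6 of the 20 lower features lacked a description.

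Contigs of 1 assembled cluster share reads, so each called contig was also read with its cluster. Of the 84 features past 4-fold, 54 had another contig in their cluster with counts in these libraries. For 31 of these the cluster sum was past 4-fold in the same direction, for 12 it lay between 2- and 4-fold, and for 11 it was within 2-fold or on the other side. By length, 38 of the 185 features above 3000 bases were at least 2-fold higher and 5 lower, with a median log2 ratio of 0.19; among the 740 features of 801 to 1600 bases 88 were higher and 80 lower.

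**Figure D5:**
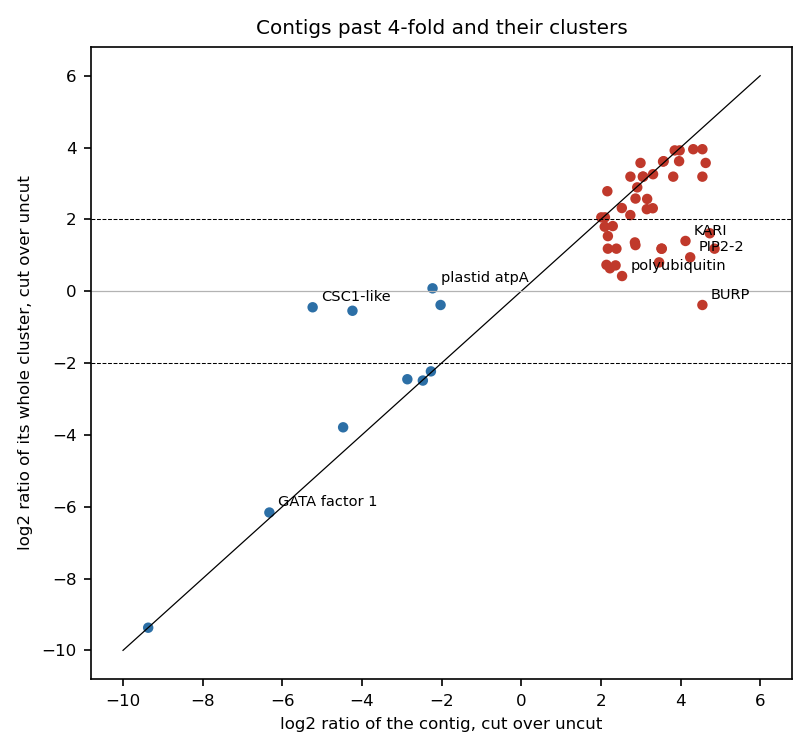
Log2 ratio of cut over uncut rhizome for the 54 contigs past 4-fold that share a cluster (horizontal axis) against the ratio of the whole cluster (vertical axis); red contigs are higher and blue ones lower in cut rhizome. Points on the solid line keep the contig's ratio, as GATA transcription factor 1 nearly does, and points near 0 do not, as with the BURP, CSC1-like, plastid atpA and polyubiquitin contigs.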

How the data were processed

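Total RNA of each tissue was sequenced, per the labels, after oligo dT selection or ribosomal RNA depletion, without saying which one each library had. Columns of the deposited tables hold, per the file headers, an expected count, an FPKM value, a length and annotation text for assembled features. Per the submitters' processing notes the tools were Bowtie2 and RSEM, without versions. The authors' expected counts were rounded to whole numbers; features that a table does not list were set to 0. Their deposited FPKM values, normalised to length and library, served as an alternative only. Features whose Nt match names ribosomal RNA (35, not mRNAs of processing proteins) were removed, and features matching a plastid or mitochondrial genome were classed as organelle.

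The libraries were scaled with TMM in edgeR 4.0.16 (R 4.3.3). Features needed 50 counts in 1 library, and the lower library was counted as at least 3 counts, per library. With 1 library a group no test was run. Ratio intervals are exact 95% intervals conditional on the summed counts. They cover counting error only, and not all of it, since PCR copies are not independent molecules. Neither the spread between explants nor the sharing of reads among contigs of a cluster is covered. The size rule was checked on simulated data. Described features were chosen for naming by the 12 largest ratios and 6 largest differences per direction past 4-fold. Up to 4 per list were also chosen, and the member of each list within 4-fold that had the most counts. Not all of them are named above. Left out, among others, were the TIC 214 contig CL2222.Contig2, with 116 counts in cut rhizome and 8 in uncut rhizome, and mediator subunit 15a Unigene19259, with 0 and 67. Undescribed features were named if largest in counts or ratio, and Unigene19159 as a plastid feature. Glutamate decarboxylase, Unigene2355 and the partner contigs of named clusters were added after their values were seen. Descriptions come from Nr, or SwissProt where Nr gives none. The features and the 41 lists were chosen with earlier results of these data known. There were 14 alternatives, including DESeq2 1.42.0 size factors. Antisense or paralogous reads could not be told apart.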

Additional observations from a re-analysis of the deposited data

Results flagged for a closer look

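Some features ran one way in rhizome and the other way in leaf at a month; with 1 library a group the difference was not tested. The log2 ratio of cut over uncut was 3.82 in rhizome and -1.57 in leaf for the retrotransposon contig CL30.Contig5, 3.06 and -1.59 for CL30.Contig4 and 3.05 and -1.19 for CL30.Contig6. For CL143.Contig4, a long contig with the description of a proline-rich protein, it was 3.58 in rhizome and -1.44 in leaf. The undescribed contig CL18.Contig6 had 3.98 in rhizome and -2.13 in leaf, and gag-pol Unigene2355 had 2.94 and -1.36. The 3 CL30 contigs share 1 cluster. The plastid contig CL733.Contig1 had -2.23 in rhizome and 1.69 in leaf.

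One ribosomal RNA feature, left out of the comparison, also stood apart: CL455.Contig2 had 309 counts in cut rhizome and 46 in uncut rhizome, 9.25-fold higher (95% counting interval 6.77 to 12.9).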

How the results depend on the processing

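The counts of features at least 4-fold higher and lower in cut rhizome, 64 and 20, were recomputed under 14 alternatives. Scaling by library totals without ribosomal RNA lowered every log2 ratio by 0.51 and gave 42 higher and 49 lower, so the split of higher against lower depends on scaling. The ribosomal protein, translation factor and plastid medians, among others, changed sign under it, and the starch, tubulin, defence and photosystem medians, among others, with FPKM. The medians of these named lists stayed above that of all features, which was -0.57 under library totals and -0.97 with FPKM. DESeq2 size factors gave 63 and 21, nuclear totals without Unigene19161 63 and 22, TMM over 8 libraries 59 and 22, and removal of organelle features 64 and 18. A minimum of 20 counts gave 168 and 102, one of 100 counts 32 and 13, and none beyond the floor 440 and 148. At 2-fold the counts were 214 and 148, and at 8-fold 29 and 11. FPKM rescaled to 1 sum gave 30 and 106 with 0.1 added and 9 and 38 with 1 added; Unigene19161 held 79.9% of the FPKM in cut rhizome and 63.9% in uncut rhizome, and the median ratio moved by -0.92 and -0.81. Summing the contigs of a cluster gave 38 and 17. Under it CL740.Contig2 turned to -0.37 and CL733.Contig1 to 0.094 on the log2 scale, since their clusters hold other contigs. A minimum of 100 counts left 1 BURP feature, so that list's median became -2.03. Over all alternatives the ratios of named features stayed within their counting interval in 1255 comparisons and left it in 333, and list medians moved by less than the spread of their members in 443 of 489. No paired analysis was possible because each group has 1 library, and none could be left out. Features under 50 counts in both libraries were not compared, which the depth of these libraries sets.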
